A study of Mus musculus with 9 samples.

Results

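The interferon-stimulated genes (ISGs) described here are 48 genes that interferons are known to switch on in mice, chosen by symbol from a list of known interferon targets. All 48 were found among the 23466 genes of the count table. They were described in group 2 innate lymphoid cells (ILC2s), lymphocytes resident in tissues that answer the alarm cytokine IL-33 with type 2 cytokines, in 3 groups of 3 RNA sequencing libraries. The first group came from the brain meninges (the membranes around the brain) of wild-type C57BL/6 mice of 10 weeks killed 24 h after an 80 kdyn contusion of the spinal cord. The others came from the brain meninges and from the lung of uninjured wild-type C57BL/6 mice of the same age. In every group the cells were sorted as live cells carrying CD45, the IL-33 receptor ST2 and Thy1 and lacking lineage markers, and the labels give 5 mice pooled per group. They name no group that had surgery without contusion, and they do not say whether each library was its own pool, so every p-value is set against a spread between libraries that may be technical only. In pooled sorted cells, fewer cells of a type and less RNA per cell cannot be told apart.

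Interferons are secreted alarm proteins of antiviral defence. Type I interferons act through the Ifnar1 and Ifnar2 receptor chains and the kinases Jak1 and Tyk2 to assemble a complex with Stat2 and Irf9 that binds the interferon-stimulated response element (ISRE) in promoters. Interferon-gamma acts through Ifngr1 and Ifngr2 on gamma-activated sites (GAS) and raises Irf1, which also binds ISRE-like DNA. The targets include proteins that bind or destroy viral RNA, GTPases that attack the membranes around intracellular microbes, chemokines, and the pathway's own transcription factors and brakes. In mouse lung, both interferon types are known to restrain ILC2 growth and cytokine output.

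The promoter sequence that joins many of these genes is shown for the 6 members with the smallest p-values whose promoter held it. In the RefSeq promoter table (GRCm38.p6, 250 bases before to 50 after each annotated start), 37 of the 48 members had a window. An ISRE-type match, spelled GAAANNGAAA on either strand, was in the window of 22 of these 37 members (59.5%), against 1079 of all 27025 genes with a window (3.99%). A GAS-type match, spelled TTCNNNGAA and identical on both strands, was in 13 of the 37 (35.1%) and in 2582 of all 27025 (9.55%). The 2 kinds of match overlapped in Bst2 and Ifitm3. The stretches run 5′ to 3′ along each gene's strand, and the capitals mark every ISRE-type match, which reads TTTCNNTTTC where it lies on the opposite strand. They are chr5:92349030-92349139 on the minus strand (Cxcl10, a chemokine) and chr11:48871381-48871490 on the minus strand (Irgm1, a GTPase of the IRG family). Next are chr3:142530243-142530352 on the plus strand (Gbp7, a guanylate-binding protein) and chr11:48992254-48992363 on the minus strand (Tgtp1, another IRG). Last are chr19:34640745-34640854 on the plus strand (Ifit1, a binder of viral RNA) and chr3:142620564-142620673 on the plus strand (Gbp2).
Cxcl10: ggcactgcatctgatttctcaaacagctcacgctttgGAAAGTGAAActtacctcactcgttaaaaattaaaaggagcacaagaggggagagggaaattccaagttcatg
Irgm1: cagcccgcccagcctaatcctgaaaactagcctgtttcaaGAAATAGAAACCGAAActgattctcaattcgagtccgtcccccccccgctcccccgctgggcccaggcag
Gbp7: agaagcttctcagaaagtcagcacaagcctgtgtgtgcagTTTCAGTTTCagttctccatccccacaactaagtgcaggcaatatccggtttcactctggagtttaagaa
Tgtp1: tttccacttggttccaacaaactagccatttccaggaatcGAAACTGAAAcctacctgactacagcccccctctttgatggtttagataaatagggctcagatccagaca
Ifit1: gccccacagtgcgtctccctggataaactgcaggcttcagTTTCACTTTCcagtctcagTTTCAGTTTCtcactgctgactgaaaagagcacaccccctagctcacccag
Gbp2: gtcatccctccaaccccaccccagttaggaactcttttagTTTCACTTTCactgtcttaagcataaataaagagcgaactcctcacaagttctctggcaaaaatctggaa
Irgm1 and Ifit1 carried 2 matches each in these stretches, and those of Irgm1 overlapped. The windows of Samhd1, Dtx3l and Irf7 held no ISRE-type match, and that of Samhd1 held a GAS-type one. A match is a description of the letters and not a measured binding site.

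**Figure D1:**
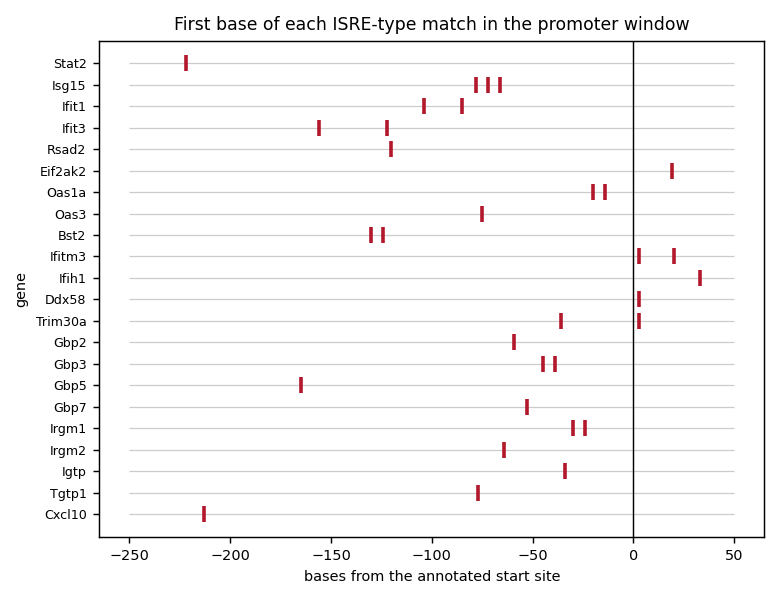
Position of each ISRE-type match in the promoter windows of the 22 members that held one. The x axis gives the bases from the annotated start site to the first base of the match along the gene's strand, the grey line is the window, and the red ticks lie on both sides of the start site.

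Library totals ran between 13407277 and 18253462 counts. Levels are given as CPM, counts scaled so that every library has the same effective size (edgeR TMM scaling), and a count of 0 allows a level of up to 3 counts, or 0.163 to 0.239 CPM depending on the library, for counting error alone. Genes with at least 1 count numbered 13465 to 16779 in injured meninges, 15761 to 18452 in uninjured meninges and 16631 to 18078 in lung. The sort was checked on Ptprc (CD45), Il1rl1 (ST2), Thy1, Gata3 and 6 other ILC2 genes, which were detected in every group and summed to 8392 to 11134 CPM in injured meninges, 7655 to 8247 CPM in uninjured meninges and 7787 to 10135 CPM in lung. Thy1, a marker of the gate itself, averaged 68.0 ± 21.6 CPM in injured meninges, 225 ± 56.3 CPM in uninjured meninges and 152 ± 14.0 CPM in lung. It fell by 1.73 ± 0.29 on the log2 scale after injury (edgeR adjusted p = 0.022), a call lost without injured meninges 2 or 3 or uninjured meninges 1 or 3 (adjusted p = 0.064, 0.089, 0.13 and 0.067). Areg, the growth factor amphiregulin, fell by 3.41 ± 0.57 in uninjured meninges against lung (edgeR adjusted p = 0.0072). Rora had 758, 1001 and 1240 CPM in injured meninges, 478, 474 and 507 CPM in uninjured meninges and 738, 948 and 1168 CPM in lung. Its groups did not overlap in either comparison, and neither was called (edgeR adjusted p = 0.075 after injury and 0.053 between tissues). Of the 10 genes, 7 had higher and 3 lower group means after injury, and 2 higher and 8 lower in uninjured meninges than in lung. The part of these differences in the ISG values was not tested. All 48 members passed the filter on low counts. A difference is called changed at an edgeR quasi-likelihood adjusted p (Benjamini-Hochberg over 15117 genes) under 0.05, and ± after a log2 fold change is its standard error.

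Most members averaged under 100 CPM, and their levels set how precisely they could be compared. Averaged over the 9 libraries, 5 members reached 100 CPM or more (Samhd1, Sp100, Parp14, Gbp7 and Ddx58), 27 lay between 10 and 100 CPM and 16 were under 10 CPM. The median standard error of the injury log2 fold change was 0.27 in the first class, 0.60 in the second and 1.91 in the third, so of the scarcest members only large differences could be detected at this depth with 3 libraries a group. Per kilobase of exon, the scale on which genes can be compared with each other, Samhd1 was the most abundant at 114 CPM per kb, followed by Ifitm3 at 43.8, Sp100 at 35.3, Gbp7 at 25.8 and Lgals3bp at 21.4 CPM per kb as means of the 9 libraries. Ifitm3 owed its place to lung, where it had 93.4 CPM per kb, and with 14.8 CPM per kb in injured meninges and 23.2 in uninjured meninges it lay below Sp100, Gbp7 and Lgals3bp in both. The lowest were Ifi44 at 0.366, Oas1a at 0.392, Oas2 at 0.416 and Mx1 at 0.469 CPM per kb. The classical markers of a strong interferon response lay in the lower part of this order, with Isg15 at 1.56 and Ifit3 at 0.805 CPM per kb.

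**Figure D2:**
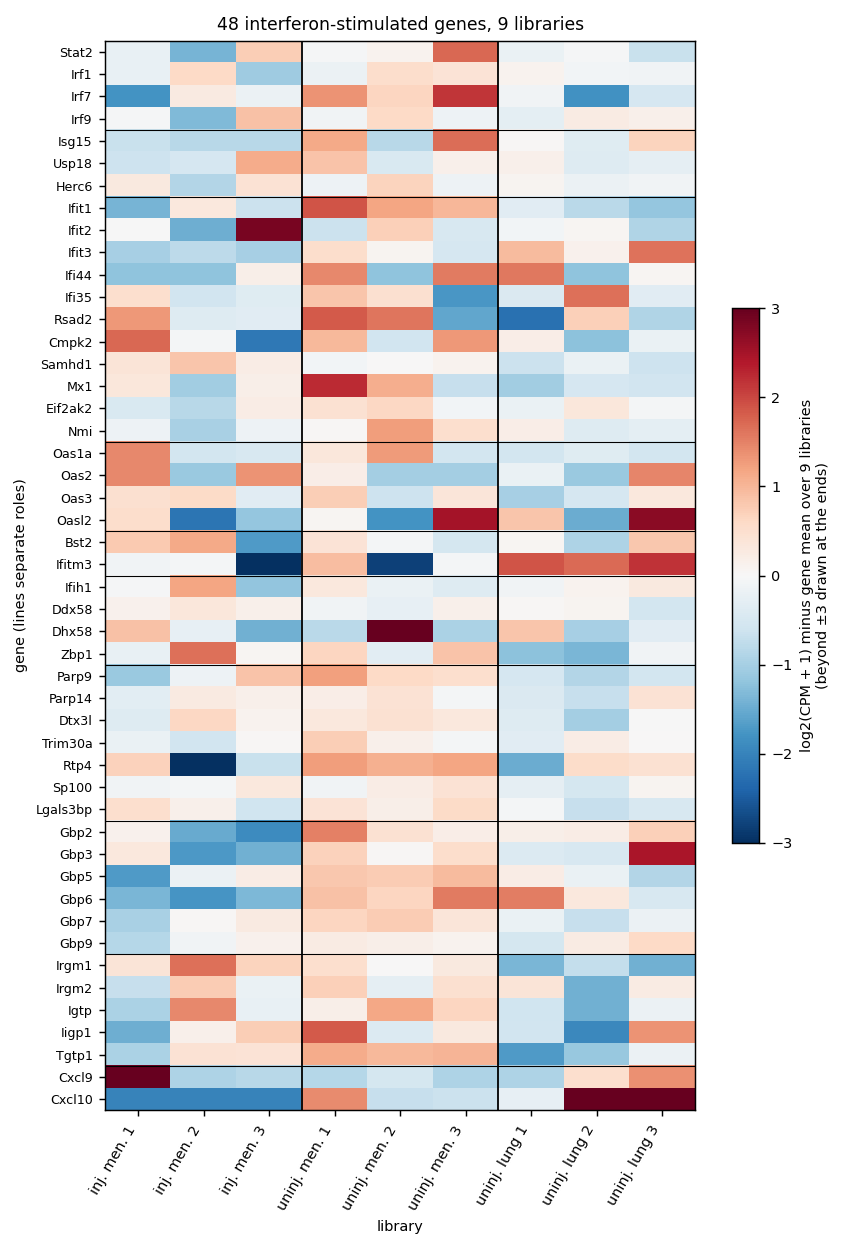
Level of the 48 genes (rows, grouped by role with lines between roles) in the 9 libraries (columns, injured meninges, uninjured meninges and lung), as log2(CPM + 1) minus the gene's mean over the 9 libraries. Isolated dark cells mark members that were high or low in 1 library of a group, such as Ifit2 in injured meninges 3 and Dhx58 in uninjured meninges 2.

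After injury the ISGs gave lower values in more members than higher ones, and edgeR called none changed. Of the 48 members, 38 (79.2%) had a negative log2 fold change in injured against uninjured meninges and 10 a positive one, beside 50.2% negative among all 15117 genes tested. Their median log2 fold change was -0.48, against -0.00 for all genes tested. Cxcl10 had no count in injured meninges. Setting it at its bound could not move this median, since its fitted value and its bound both lie far below it. The median standard error of a member was 0.70. By edgeR's quasi-likelihood test with Benjamini-Hochberg adjustment 0 of 48 members were called, where 29 of all genes tested (0.192%) were. DESeq2 called 2 members, Gbp6 and Cxcl10, beside 435 of 15186 genes (2.86%). At an unadjusted p under 0.05, edgeR gave 6 lower members (12.5%: Isg15, Ifit1, Gbp2, Gbp6, Gbp7 and Cxcl10) and 1 higher member (2.08%: Samhd1), where the background was 4.36% lower and 4.58% higher. Without uninjured meninges 1 the lower count was 2, and without uninjured meninges 1 or 2 the higher count was 0; it was 2 without any 1 injured library. The 3 libraries of each group did not overlap in 11 lower members (22.9%, background 6.79%), which were Irf7, Ifit1, Ifit3, Nmi, Rtp4, Gbp2, Gbp5, Gbp6, Gbp7, Tgtp1 and Cxcl10, and in 1 higher member (2.08%, background 5.35%), Samhd1. Without injured meninges 3, 17 members did not overlap in the lower direction. Groups with fewer libraries overlap less often in any gene. The share of all genes was not counted with a library left out, here or at an unadjusted p.

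Uninjured meningeal ILC2s gave higher ISG values than lung ILC2s in more members than lower ones, and again edgeR called none. Of the 48 members, 38 (79.2%) had a positive log2 fold change in uninjured meninges against lung and 10 a negative one, beside 50.1% positive among all genes tested. The median was 0.48, against 0.00 for all genes tested, with a median standard error of 0.71, and it was 0.76 without lung 3. The edgeR test called 0 of 48 members, where it called 96 of all genes tested (0.635%), and DESeq2 called 3 members, Ifit1, Irgm1 and Tgtp1, beside 535 of 15186 genes (3.52%). At an unadjusted p under 0.05, edgeR gave 8 higher members (16.7%, background 2.41%), which were Irf7, Ifit1, Samhd1, Parp9, Dtx3l, Gbp7, Irgm1 and Tgtp1, and 0 lower members (background 5.58%). The higher count was 5 without uninjured meninges 1 and also 5 without uninjured meninges 3. The libraries did not overlap in 13 higher members (27.1%, background 7.63%), which were these 8 with Stat2, Rtp4, Lgals3bp, Gbp5 and Igtp, and in 1 lower member (2.08%, background 10.6%), Ifitm3. The lower count was 4 without uninjured meninges 1, 3 without lung 1 and 2 without lung 2. The share of all genes was again not counted with a library left out. Both comparisons use the uninjured meninges libraries, so a high value there makes the injury difference lower and the tissue difference higher at once. By group means, uninjured meninges was the highest of the 3 groups for 32 members, injured meninges for 10 and lung for 6.

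**Figure D3:**
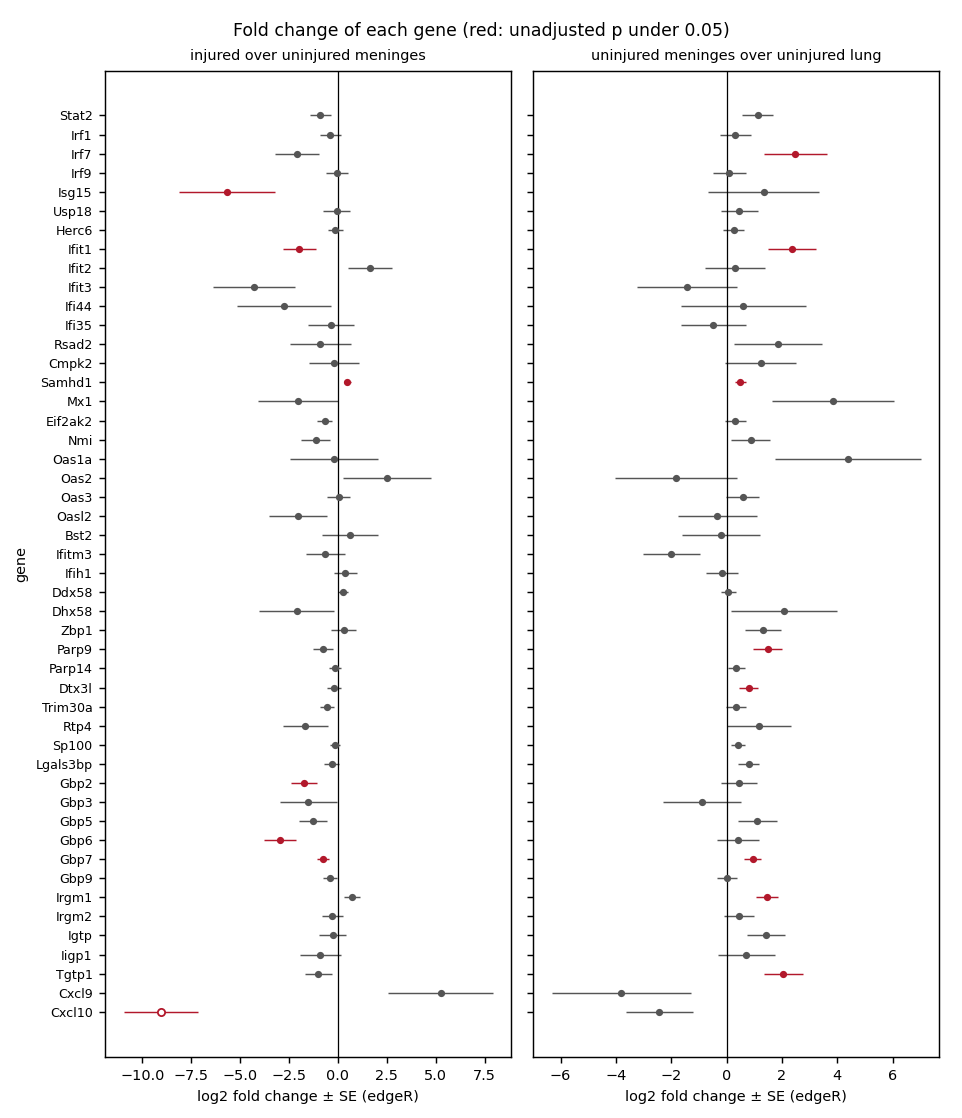
Fitted log2 fold change of each member with its standard error (edgeR), for injured over uninjured meninges and for uninjured meninges over lung. Red points have an unadjusted p under 0.05, none passes after adjustment, and the open point, Cxcl10, had no count in injured meninges, so its fitted value is not a measured fold.

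Summed over all members, the level was 2717, 3581 and 2993 CPM in injured meninges, 3071, 3049 and 3161 CPM in uninjured meninges and 2044, 2201 and 2372 CPM in lung. The group means of this sum were 3097 CPM in injured and 3094 CPM in uninjured meninges. Samhd1 alone made up a large share of these sums, so the sum was also taken without it. Leaving it out was not planned, and Samhd1 was also the 1 member higher after injury without overlap. Without Samhd1 the sum was 1417, 1798 and 1836 CPM in injured meninges, 2129, 2040 and 2089 CPM in uninjured meninges and 1411, 1330 and 1724 CPM in lung. All 3 uninjured meninges libraries lay above all libraries of the other groups on this sum, and they lay close together, with an SD of 44.5 CPM against 231 CPM in injured meninges and 208 CPM in lung. Members at 10 CPM or more numbered 28, 26 and 27 in injured meninges, 35, 32 and 34 in uninjured meninges and 26, 27 and 31 in lung. Members with no count numbered 3, 7 and 4 in injured meninges, 0, 2 and 2 in uninjured meninges and 4, 2 and 1 in lung. Injured meninges 2, with 7 members at 0, was also the library with the fewest genes detected.

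**Figure D4:**
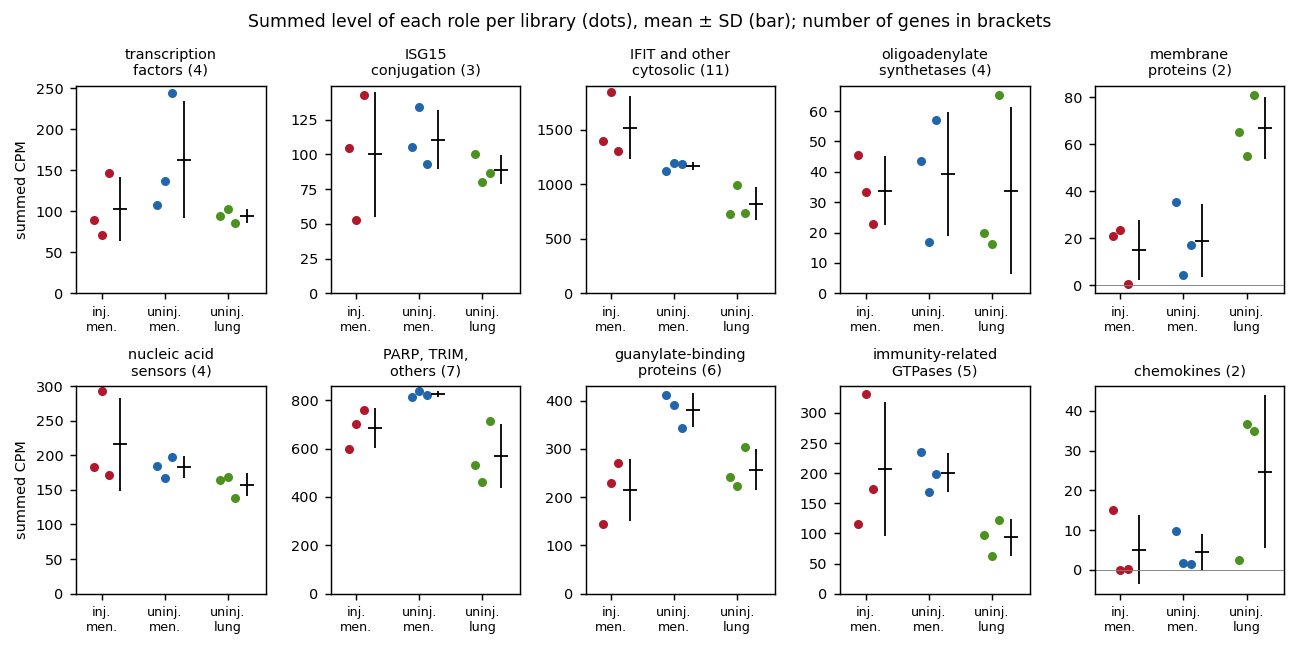
Summed CPM of the members of each role in each library (dots) with the mean ± SD of 3 libraries, for injured meninges (red), uninjured meninges (blue) and lung (green). The guanylate-binding proteins sum to 342 CPM or more in each uninjured meninges library and to 305 CPM or less in every other library.

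The 4 transcription factors had lower group means after injury and higher ones in uninjured meninges than in lung, with wide spreads. Irf7 had 0.777, 6.36 and 4.39 CPM in injured meninges, 14.5, 8.58 and 26.2 CPM in uninjured meninges and 4.67, 0.736 and 3.33 CPM in lung. Irf7, the factor that drives interferon genes themselves, was low in every injured and lung library and higher in every uninjured meninges library. Its log2 fold change was -2.09 ± 1.13 in injured against uninjured meninges (edgeR adjusted p = 0.62) and 2.49 ± 1.14 in uninjured meninges against lung (edgeR adjusted p = 0.6). Stat2 had 41.3, 17.7 and 81.3 CPM in injured meninges, 47.3, 51.7 and 161 CPM in uninjured meninges and 41.5, 47.1 and 29.7 CPM in lung. For Stat2, part of the type I interferon complex, the highest value by far was uninjured meninges 3, the injured and uninjured meninges overlapped, and every uninjured meninges library lay above lung. The tissue log2 fold change of Stat2 was 1.13 ± 0.56 (edgeR adjusted p = 0.65). Irf9 had 25.9, 10.0 and 49.9 CPM in injured meninges, 24.7, 40.4 and 23.7 CPM in uninjured meninges and 21.3, 31.7 and 29.6 CPM in lung. Irf1 had 21.1, 37.5 and 11.2 CPM in injured meninges, 21.7, 35.9 and 33.3 CPM in uninjured meninges and 26.6, 23.3 and 22.7 CPM in lung. Irf9, the DNA-binding part of the same complex, and Irf1, the factor downstream of interferon-gamma, overlapped between all 3 groups.

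In the ISG15 system the tag was scarce and its enzymes overlapped between groups. Isg15, the ubiquitin-like tag itself, had 0.119, 0 and 0 CPM in injured meninges, 2.88, 0 and 4.63 CPM in uninjured meninges and 0.799, 0.368 and 1.79 CPM in lung. Only 1 injured library held any Isg15 count, 1 uninjured meninges library held none, and the unadjusted edgeR p of 0.036 (adjusted p = 0.52) rests on these few counts. Usp18 had 11.3, 12.3 and 39.7 CPM in injured meninges, 33.5, 12.7 and 20.02 CPM in uninjured meninges and 19.9, 13.4 and 14.7 CPM in lung. Herc6 had 93.0, 40.7 and 103 CPM in injured meninges, 68.6, 121 and 68.2 CPM in uninjured meninges and 79.8, 66.6 and 69.8 CPM in lung. Usp18, which removes ISG15 and dampens the type I interferon receptor, and Herc6, the mouse ligase for ISG15, overlapped between the groups in both comparisons.

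Among the cytosolic effectors, Ifit1 and Samhd1 differed most clearly and in opposite directions after injury. Ifit1 had 2.57, 10.7 and 5.01 CPM in injured meninges, 33.8, 20.5 and 17.8 CPM in uninjured meninges and 6.39, 4.35 and 3.20 CPM in lung. The 3 uninjured meninges libraries of Ifit1, which binds the caps of viral RNA, lay above all 6 others. The means were 6.11 ± 4.19 CPM in injured meninges, 24.0 ± 8.56 CPM in uninjured meninges and 4.65 ± 1.62 CPM in lung (SD, n = 3 libraries each). The log2 fold change of Ifit1 was -1.98 ± 0.84 after injury (edgeR adjusted p = 0.52) and 2.37 ± 0.85 in uninjured meninges against lung (edgeR adjusted p = 0.37). Samhd1 had 1300.0, 1784 and 1158 CPM in injured meninges, 942, 1009 and 1072 CPM in uninjured meninges and 633, 872 and 648 CPM in lung. Samhd1, an enzyme that breaks down the nucleotides viruses need to copy DNA, stood in order with no overlap between neighbouring groups, injured meninges above uninjured meninges above lung. Its log2 fold change was 0.49 ± 0.19 after injury (edgeR adjusted p = 0.5) and 0.49 ± 0.19 in uninjured meninges against lung (edgeR adjusted p = 0.46).

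Most other cytosolic effectors overlapped between groups, and Nmi and Ifit3 did not overlap in the injury comparison. Nmi had 11.1, 5.89 and 11.2 CPM in injured meninges, 12.8, 31.2 and 18.1 CPM in uninjured meninges and 14.5, 9.43 and 10.1 CPM in lung. Nmi, an interferon-induced binding partner of transcription factors, was lower in every injured library than in every uninjured meninges library, by a narrow gap, with a log2 fold change of -1.14 ± 0.72 (edgeR adjusted p = 0.68). Ifit2 had 6.33, 1.67 and 52.2 CPM in injured meninges, 3.76, 11.2 and 4.30 CPM in uninjured meninges and 5.96, 6.70 and 2.95 CPM in lung. Ifit2, a relative of Ifit1, was low in all libraries but injured meninges 3. Mx1 had 1.61, 0 and 1.32 CPM in injured meninges, 8.599, 3.36 and 0.269 CPM in uninjured meninges and 0, 0.442 and 0.384 CPM in lung. Mx1, an antiviral GTPase whose allele in most laboratory mouse strains gives no working protein, was scarce in all 9 libraries. Ifit3, a binding partner of Ifit1, had 0, 0.159 and 0 CPM in injured meninges, 1.85, 1.10 and 0.403 CPM in uninjured meninges and 2.83, 1.18 and 5.12 CPM in lung. The injured libraries of Ifit3 lay below both other groups at levels of at most 2 counts. Eif2ak2 had 41.8, 31.9 and 68.1 CPM in injured meninges, 79.5, 89.6 and 54.8 CPM in uninjured meninges and 50.1, 74.1 and 55.7 CPM in lung. Eif2ak2, the kinase that halts translation on double-stranded RNA, overlapped between all groups, and so did the scarce Ifi44, Ifi35, Rsad2 and Cmpk2, whose highest value in any library was 18.8 CPM.

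The oligoadenylate synthetases, which sense double-stranded RNA and switch on RNase L, showed no order of groups. Oas1a had 2.99, 0 and 0.0627 CPM in injured meninges, 0.871, 2.58 and 0 CPM in uninjured meninges and 0, 0.147 and 0 CPM in lung. Oas3 had 31.0, 33.1 and 17.0 CPM in injured meninges, 36.8, 13.8 and 28.1 CPM in uninjured meninges and 10.4, 15.1 and 27.2 CPM in lung. Oas1a was close to undetected in lung, and Oas3 was the most abundant of the 4 per kilobase in each group, with libraries that overlapped between groups. Oasl2 had 6.63, 0.159 and 1.38 CPM in injured meninges, 4.46, 0.516 and 28.8 CPM in uninjured meninges and 8.42, 0.884 and 33.2 CPM in lung. Oasl2 varied widely within each group, and the remaining member, Oas2, had at most 4.93 CPM in any library.

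Of the 2 membrane proteins, Ifitm3 was higher in lung and Bst2 did not separate the groups. Ifitm3 had 14.7, 15.2 and 0.313 CPM in injured meninges, 30.7, 1.42 and 15.1 CPM in uninjured meninges and 61.6, 53.7 and 74.6 CPM in lung. Ifitm3, which blocks virus entry from endosomes, was higher in every lung library than in every meningeal library, with a log2 fold change of -2.00 ± 1.03 in uninjured meninges against lung (edgeR adjusted p = 0.68). Bst2 had 6.39, 8.35 and 0.313 CPM in injured meninges, 4.68, 3.10 and 1.95 CPM in uninjured meninges and 3.44, 1.25 and 6.41 CPM in lung. Bst2, which tethers budding virus, was scarce and overlapped in both comparisons.

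The sensors of viral nucleic acid did not separate the groups. Ddx58 had 135, 157 and 137 CPM in injured meninges, 115, 104 and 137 CPM in uninjured meninges and 127, 131 and 83.8 CPM in lung. Ddx58, which encodes the RNA sensor RIG-I, was the most abundant sensor per kilobase in each group, with log2 fold changes of 0.26 ± 0.27 after injury and 0.06 ± 0.27 in uninjured meninges against lung. Ifih1 had 26.8, 63.8 and 11.5 CPM in injured meninges, 34.3, 23.8 and 20.6 CPM in uninjured meninges and 25.3, 29.4 and 33.5 CPM in lung. Zbp1 had 18.3, 70.6 and 22.7 CPM in injured meninges, 34.3, 17.3 and 39.7 CPM in uninjured meninges and 8.73, 7.81 and 20.05 CPM in lung. Ifih1, a second sensor of viral RNA, and Zbp1, a sensor of left-handed nucleic acid that can trigger cell death, were each highest in injured meninges 2. Dhx58, a regulator of these RNA sensors, stayed at 4.002 CPM or less in every library except uninjured meninges 2, where it had 21.8 CPM.

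The 7 regulators around Parp9 all had lower group means after injury and higher ones in uninjured meninges than in lung. Together they summed to 598, 702 and 761 CPM in injured meninges, 814, 839 and 822 CPM in uninjured meninges and 531, 461 and 716 CPM in lung. Every uninjured meninges library lay above every other library on this sum. Parp9 had 14.3, 28.7 and 58.7 CPM in injured meninges, 76.7, 48.6 and 46.1 CPM in uninjured meninges and 22.4, 16.9 and 21.5 CPM in lung. Dtx3l had 56.9, 115 and 81.0 CPM in injured meninges, 93.8, 104 and 94.1 CPM in uninjured meninges and 57.7, 36.4 and 74.3 CPM in lung. Parp9 and Dtx3l encode partners in a ubiquitin ligase complex, and for both the uninjured meninges libraries lay above lung without overlap while the meningeal groups overlapped. The tissue log2 fold change was 1.49 ± 0.53 for Parp9 (edgeR adjusted p = 0.35) and 0.79 ± 0.36 for Dtx3l (edgeR adjusted p = 0.57). Rtp4 had 13.4, 0.0795 and 4.64 CPM in injured meninges, 20.4, 17.6 and 19.2 CPM in uninjured meninges and 2.15, 12.1 and 11.1 CPM in lung. Rtp4, a receptor chaperone that dampens interferon responses in mice, was steady in uninjured meninges, above every injured and lung library. Parp14 had 132, 199.9 and 185 CPM in injured meninges, 190.1, 223 and 159 CPM in uninjured meninges and 123, 103 and 223 CPM in lung. Sp100 had 242, 249.1 and 326 CPM in injured meninges, 245, 306 and 353 CPM in uninjured meninges and 219, 181 and 279 CPM in lung. Parp14, an ADP-ribosyltransferase, and Sp100, a component of nuclear bodies, overlapped between all groups, with injury log2 fold changes of -0.15 ± 0.30 for Parp14 and -0.15 ± 0.24 for Sp100. Lgals3bp had 82.4, 65.0 and 37.8 CPM in injured meninges, 77.9, 65.5 and 87.5 CPM in uninjured meninges and 55.7, 35.3 and 41.4 CPM in lung. Lgals3bp, a secreted galectin-binding protein, was higher in every uninjured meninges library than in lung. Trim30a had 57.3, 44.0 and 68.0 CPM in injured meninges, 111, 73.8 and 62.9 CPM in uninjured meninges and 51.6, 76.4 and 66.6 CPM in lung. Trim30a, a ubiquitin ligase that restrains inflammatory signalling in mice, overlapped in both comparisons.

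The guanylate-binding proteins (GBPs), large GTPases that assemble on the membranes around intracellular microbes, were the role with the lowest injury values among those with more than 2 members. Their median log2 fold change was -1.38 after injury, all 6 had lower group means, and in 4 of them the 2 groups did not overlap, where 6.79% of all genes tested did not overlap in this direction. They summed to 144, 229.7 and 271 CPM in injured meninges, 411, 390.2 and 342 CPM in uninjured meninges and 242, 224 and 305 CPM in lung. Gbp6 had 3.11, 2.15 and 3.20 CPM in injured meninges, 18.5, 15.7 and 30.6 CPM in uninjured meninges and 30.0, 12.3 and 6.66 CPM in lung. Gbp6 was at most 3.20 CPM in injured meninges and at least 15.7 CPM in uninjured meninges, with a log2 fold change of -2.93 ± 0.82 (edgeR adjusted p = 0.27; DESeq2 adjusted p = 0.00071). Gbp2 had 22.0, 6.36 and 4.70 CPM in injured meninges, 59.5, 28.0 and 23.3 CPM in uninjured meninges and 22.7, 23.9 and 33.9 CPM in lung. Gbp2 was lower in each injured library than in each uninjured meninges library, with injured meninges 1 close to the lowest of them, and had a log2 fold change of -1.74 ± 0.67 (edgeR adjusted p = 0.49). Gbp7 had 68.8, 138 and 162 CPM in injured meninges, 211, 231 and 173 CPM in uninjured meninges and 117, 83.1 and 119 CPM in lung. Gbp7, the most abundant GBP, was higher in every uninjured meninges library than in any other, with a log2 fold change of -0.74 ± 0.31 after injury (edgeR adjusted p = 0.52) and 0.95 ± 0.31 in uninjured meninges against lung (edgeR adjusted p = 0.29). Gbp5 had 3.76, 12.5 and 16.9 CPM in injured meninges, 25.7, 25.1 and 28.5 CPM in uninjured meninges and 17.0, 12.4 and 7.30 CPM in lung. Gbp5, which also promotes inflammasome activity, showed the same order without overlap. Gbp9 had 42.1, 70.6 and 83.4 CPM in injured meninges, 90.9, 86.9 and 82.0 CPM in uninjured meninges and 52.6, 90.4 and 116 CPM in lung. Gbp9 and the scarce Gbp3 overlapped in both comparisons.

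The immunity-related GTPases (IRGs), which act with the GBPs on microbial vacuoles, were higher in uninjured meninges than in lung in 5 of 5 group means, and 4 of the 5 had lower group means after injury. Irgm1 had 71.8, 175 and 87.4 CPM in injured meninges, 78.3, 55.4 and 67.9 CPM in uninjured meninges and 20.6, 33.1 and 19.6 CPM in lung. Irgm1, a regulator of the other IRGs, was lower in every lung library than in every meningeal library. Its tissue log2 fold change was 1.46 ± 0.40, with the smallest p of any member in that comparison (edgeR unadjusted p = 0.0024, adjusted p = 0.16), and its injury log2 fold change was 0.73 ± 0.39, with 1 uninjured meninges library above the lowest injured one. Tgtp1 had 6.63, 18.9 and 18.7 CPM in injured meninges, 31.1, 28.0 and 29.2 CPM in uninjured meninges and 3.56, 5.67 and 11.98 CPM in lung. Tgtp1, an effector IRG, was higher in every uninjured meninges library than in any other, with a log2 fold change of 2.06 ± 0.72 against lung (edgeR adjusted p = 0.33) and -0.997 ± 0.70 after injury (edgeR adjusted p = 0.73). Igtp had 9.68, 55.3 and 16.9 CPM in injured meninges, 22.3, 45.2 and 31.2 CPM in uninjured meninges and 12.6, 6.63 and 17.5 CPM in lung. Igtp, another regulatory IRG, was higher in each uninjured meninges library than in lung, and Irgm2 and Iigp1 overlapped in both comparisons.

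The chemokines Cxcl9 and Cxcl10, which attract T cells through the receptor Cxcr3, were scarce in the meninges and had fitted injury differences of opposite sign. Cxcl10 had no count in any injured library, against 9.63, 1.48 and 1.54 CPM in uninjured meninges, and had 2.40, 34.9 and 30.9 CPM in lung. It was at least 20.9-fold lower in injured than in uninjured meninges when injured meninges was set at 3 counts per library, and at least 7.50-fold lower without uninjured meninges 1. This was the smallest p of any member in the injury comparison (edgeR unadjusted p = 0.00035, adjusted p = 0.097), and DESeq2 gave an adjusted p of 0.00012. The tissue log2 fold change of Cxcl10 was -2.43 ± 1.23 in uninjured meninges against lung (edgeR adjusted p = 0.68), with the uninjured meninges and lung libraries overlapping. Cxcl9 had 15.1, 0 and 0.0627 CPM in injured meninges, 0.0544, 0.323 and 0 CPM in uninjured meninges and 0, 1.69 and 3.91 CPM in lung. Cxcl9 was seen above 5 CPM only in injured meninges 1, and this library alone carried the positive sign of its injury difference.

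**Figure D5:**
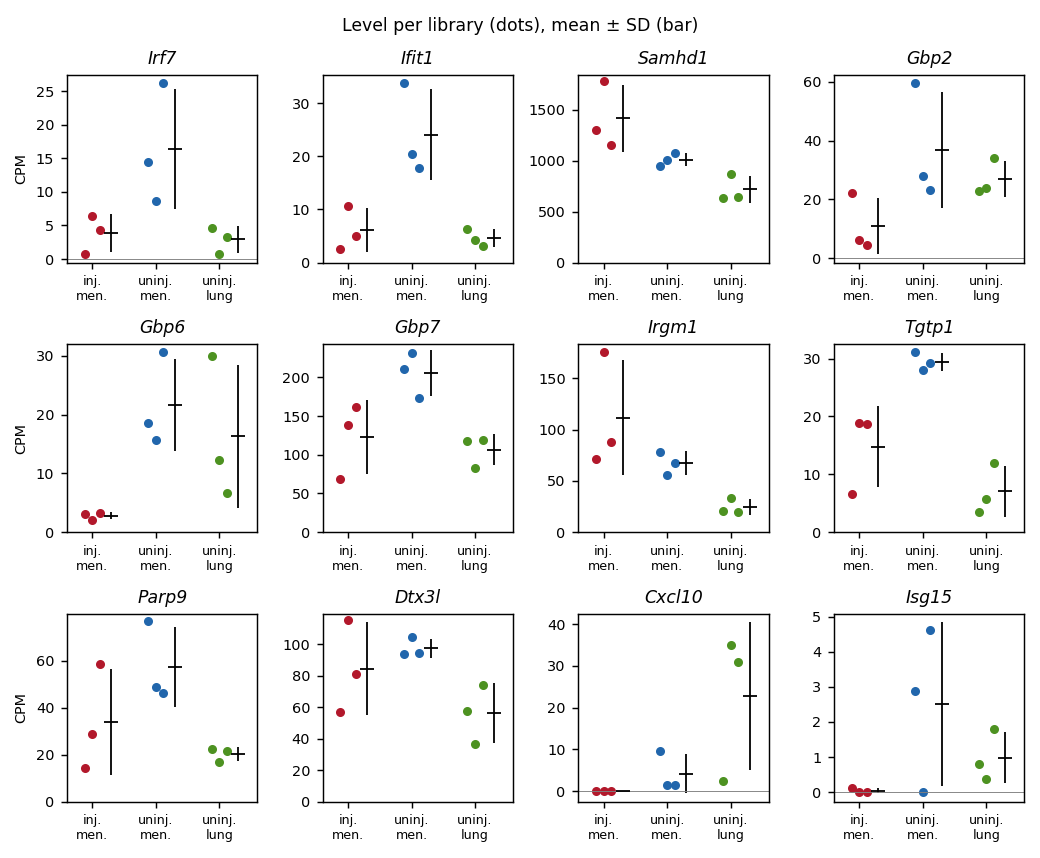
CPM of 12 members in each library (dots) with the mean ± SD of 3 libraries, for injured meninges (red), uninjured meninges (blue) and lung (green). The uninjured meninges dots of Irf7, Ifit1, Gbp7 and Tgtp1 lie above all others, Samhd1 steps down through the 3 groups, and Cxcl10 is at 0 in all injured libraries.

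Many members sit side by side in the genome, and the differences of neighbours did not always share a sign. In the RefSeq annotation, 25 of the 48 lie in 10 clusters with gaps of at most 300 kb. Gbp2, Gbp3, Gbp5 and Gbp7 form 1 cluster, and all 4 had lower group means after injury. Parp9, Dtx3l and Parp14 form another, with lower group means after injury and higher ones in uninjured meninges than in lung for all 3. Irgm1 and Tgtp1 are neighbours whose fitted injury differences had opposite signs, and Cxcl9 and Cxcl10 are another such pair, with the sign of Cxcl9 resting on injured meninges 1. Of Ifit1, Ifit2 and Ifit3, also neighbours, Ifit2 had the opposite sign to the others after injury. Without injured meninges 3 its mean was 4.001 CPM in injured meninges against 6.41 CPM in uninjured meninges, the sign of its neighbours. Only positive signs were checked in this way, and negative ones can rest on 1 library too. Dhx58 and Herc6 were lower after injury only through uninjured meninges 2. In uninjured meninges 1 and 3, Dhx58 had 0.544 and 0.403 CPM, against a mean of 1.76 CPM in injured meninges. Herc6 had 68.6 and 68.2 CPM there, against a mean of 78.8 CPM in injured meninges.

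Reads of near-identical copies limit 4 members. Of their 50-base exon stretches, 81.2% of Tgtp1, 70.7% of Gbp6, 57.6% of Oas1a and 51.2% of Ifit3 also occur in other annotated genes, above all in Tgtp2, Gm43302, Oas1g and Ifit3b, while 31 members share under 5%. The counts of these 4 are therefore uncertain as values of a single gene. Tgtp2 had 22.8, 16.5 and 27.9 CPM in injured meninges, 47.7, 59.0 and 42.6 CPM in uninjured meninges and 21.7, 27.2 and 22.8 CPM in lung. Tgtp2 was higher in every uninjured meninges library than in any other, as Tgtp1 was.

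The rest of the pathway was described with lists of known interferon genes that are not members. The ligands were scarce, and 1 of them was counted in every library. Of 15 listed interferon genes 3 were in the table. Ifnk, a type I interferon known from skin, had 0.836, 8.91 and 1.07 CPM in injured meninges, 0.544, 1.48 and 1.28 CPM in uninjured meninges and 4.98, 1.18 and 1.92 CPM in lung. The groups overlapped for Ifnk, with its highest value in injured meninges 2 and log2 fold changes of 1.70 ± 1.62 after injury and -1.29 ± 1.61 in uninjured meninges against lung. Ifng had 2 counts in uninjured meninges 2, 1 count in lung 1 and none in the other 7 libraries. Ifnab had 24 counts in lung 3 and none elsewhere. Among 19 tested receptors and signalling genes edgeR called 1 higher after injury and 0 lower, where it called 0.192% of all genes tested. Between uninjured meninges and lung it called 0 in either direction, where it called 0.635% of all genes tested. The gene called after injury was Ifngr1, the ligand-binding chain of the interferon-gamma receptor. Ifngr1 had 258, 384 and 273 CPM in injured meninges, 88.7, 60.3 and 135 CPM in uninjured meninges and 181, 209.8 and 197 CPM in lung. Every injured library lay above every other, and every uninjured meninges library below every lung library. Ifngr1 rose by 1.69 ± 0.29 on the log2 scale after injury (edgeR adjusted p = 0.0237), and the call was lost without injured meninges 2, uninjured meninges 1 or uninjured meninges 2 (adjusted p = 0.069, 0.12 and 0.11) and with only the 6 compared libraries in the fit (adjusted p = 0.12). Its tissue log2 fold change was -1.05 ± 0.29 in uninjured meninges against lung (edgeR adjusted p = 0.16), which was called lower by DESeq2 and without the filter on low counts (adjusted p = 0.049 and 0.048).

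No other receptor or signalling gene was called by edgeR or DESeq2. Jak2, the kinase of the interferon-gamma receptor, averaged 531 ± 164 CPM in injured meninges, 365 ± 47.7 CPM in uninjured meninges and 535 ± 156 CPM in lung. Ifnar1 averaged 85.4 ± 16.9 CPM in injured meninges, 85.2 ± 15.9 CPM in uninjured meninges and 140.2 ± 42.6 CPM in lung. Ifnar2 averaged 57.5 ± 4.02 CPM in injured meninges, 32.9 ± 4.52 CPM in uninjured meninges and 38.2 ± 10.0 CPM in lung. Both chains of the type I receptor were measured in all groups, and neither was called in either comparison. Ifnar2 was higher in every injured library than in every uninjured meninges library, with a log2 fold change of 0.80 ± 0.40 (edgeR adjusted p = 0.59). Ifngr2, the second chain of the interferon-gamma receptor, averaged 42.5 ± 25.7 CPM in injured meninges, 37.0 ± 9.53 CPM in uninjured meninges and 52.1 ± 9.94 CPM in lung. Jak1 and Tyk2, the kinases of the type I receptor, averaged 679 and 54.0 CPM in injured meninges, 668 and 43.0 CPM in uninjured meninges and 680.4 and 66.1 CPM in lung. Of 14 tested genes of nucleic acid sensing, edgeR called 0 in either comparison, against 0.192% and 0.635% of all genes tested. Of the 13 with an adjusted p in DESeq2, it called 0 after injury, against 2.86% of all genes. DESeq2 called 1 (7.69%) higher in uninjured meninges than in lung, against 3.52% of all genes in either direction. That gene was Tmem173, which encodes the adaptor STING and had a tissue log2 fold change of 0.89 ± 0.37 (edgeR adjusted p = 0.49, DESeq2 adjusted p = 0.044). Myd88 had 8.12, 109.8 and 10.7 CPM in injured meninges, 7.84, 9.61 and 1.14 CPM in uninjured meninges and 5.53, 2.80 and 8.90 CPM in lung. Myd88, an adaptor of Toll-like receptors, was high in injured meninges 2 alone, and its injury log2 fold change of 2.79 ± 1.04 was 0.60 without that library. The next smallest p-values were those of Ifi204 (log2 fold change -3.64 ± 2.14) after injury and Tlr3 (-1.64 ± 0.93) in uninjured meninges against lung.

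A further list held 64 other interferon-induced genes, of which 56 were tested. After injury edgeR called 0, where it called 0.192% of all genes tested. In the lower direction 12 had an edgeR unadjusted p under 0.05 (21.4%, where 4.36% of all genes tested did). In the higher direction 0 did (4.58% of all genes tested), and the list's median log2 fold change was -0.52. DESeq2 called 4 lower (7.14%, against 2.86% of all genes in either direction), which were Psmb9, Slfn5, Tgtp2 and Trim34a. Between uninjured meninges and lung edgeR called 0, where it called 0.635% of all genes tested. An edgeR unadjusted p under 0.05 was found for 10 in the higher direction (17.9%, against 2.41% of all genes tested). It was found for 2 in the lower (3.57%, against 5.58%), and the list's median was 0.50. DESeq2 called 5 higher (8.93%, against 3.52% in either direction), which were Ifi47, Nlrc5, Tap1, Tgtp2 and Znfx1. Psmb9 had 3.76, 3.18 and 4.14 CPM in injured meninges, 22.5, 27.0 and 32.2 CPM in uninjured meninges and 13.6, 9.43 and 22.8 CPM in lung. Psmb9, a catalytic subunit of the immunoproteasome, was lower in each injured library than in any other, with an injury log2 fold change of -2.88 ± 0.71 (edgeR adjusted p = 0.18, DESeq2 adjusted p = 3.0e-07). Slfn5 had 70.2, 81.2 and 61.9 CPM in injured meninges, 137, 151 and 144 CPM in uninjured meninges and 139, 121 and 107 CPM in lung. Slfn5, a Schlafen family gene, showed the same lack of overlap, with -1.02 ± 0.26 (edgeR adjusted p = 0.21, DESeq2 adjusted p = 0.0015). Tap1 had 53.7, 32.4 and 56.5 CPM in injured meninges, 43.0, 89.4 and 94.3 CPM in uninjured meninges and 34.0, 15.0 and 31.2 CPM in lung. Gbp4 had 174, 107 and 221 CPM in injured meninges, 221, 307 and 299 CPM in uninjured meninges and 134, 158 and 157 CPM in lung. Tap1, part of the peptide transporter for antigen presentation, and Gbp4 were higher in each uninjured meninges library than in lung, with tissue log2 fold changes of 1.498 ± 0.46 for Tap1 and 0.88 ± 0.27 for Gbp4 (edgeR adjusted p = 0.23 and 0.24; DESeq2 adjusted p = 0.045 for Tap1).

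Markers of other cell types differed between the groups too. Of 9 B cell markers 6 had lower and 3 higher group means after injury, none was at 0 in all libraries of a group, and they summed to 33.1 to 137 CPM in injured meninges, 214 to 947 CPM in uninjured meninges and 240 to 334 CPM in lung. In uninjured meninges and lung most of this sum was Ighm, the heavy chain gene of immunoglobulin M. Ighm had 47.1, 59.1 and 28.6 CPM in injured meninges, 667, 184 and 886 CPM in uninjured meninges and 171, 282 and 175 CPM in lung. Ighm fell by 3.69 ± 0.48 on the log2 scale after injury (edgeR adjusted p = 0.0035), a call lost without injured meninges 1 or 2 (adjusted p = 0.075 and 0.092). Of 12 monocyte and macrophage markers in the table, 11 had higher group means after injury, and their sums were 66.5 to 174 CPM in injured meninges, 34.5 to 106 CPM in uninjured meninges and 34.5 to 494 CPM in lung, with Cd14 at 0 in uninjured meninges. Of the 10 dendritic cell markers, which include the member Bst2, 6 had higher and 4 lower group means after injury. Between tissues, 3 were higher and 7 lower in uninjured meninges than in lung. They summed to 196 to 265 CPM in injured meninges, 201 to 379 CPM in uninjured meninges and 217 to 297 CPM in lung. Most of this sum was Ccr9, Tcf4 and Zbtb46 in each group, with means of 79.9, 89.5 and 36.2 CPM in injured meninges. Siglech and Clec9a were at 0 in injured meninges and Itgax at 0 in uninjured meninges. Of the stromal markers, 8 of 10 endothelial and 7 of 10 fibroblast ones had lower group means after injury, at 76.6 to 191 CPM and 3.89 to 36.3 CPM in injured meninges against 64.7 to 288 CPM and 4.65 to 83.9 CPM in uninjured meninges, with Pdgfra, Lum and Dpt at 0 in injured meninges. In the tissue comparison, 8 of 8 lung epithelial markers had lower group means in uninjured meninges and summed to 3.76 to 11.4 CPM there, with Sftpd and Cldn18 at 0, against 655 to 2235 CPM in lung. All 10 endothelial markers and 8 of 10 fibroblast markers were also lower in uninjured meninges, at the sums just given, against 258 to 746 CPM and 145 to 336 CPM in lung, with Dpt at 0 in uninjured meninges. All 8 neutrophil markers in the table had higher group means in uninjured meninges than in lung, and 3 had higher and 5 lower ones after injury. They summed to 0.398 to 64.4 CPM in injured meninges, 7.29 to 50.6 CPM in uninjured meninges and 2.21 to 9.61 CPM in lung, with Camp at 0 in injured meninges and Camp and Ngp at 0 in lung. Of 12 T and NK cell markers, 7 had higher group means after injury and 4 in uninjured meninges against lung, with sums of 2.76 to 105 CPM in injured meninges, 10.1 to 52.6 CPM in uninjured meninges and 16.9 to 46.8 CPM in lung and Gzma at 0 in injured meninges. The part of these cell types, and of the number of genes detected, in the ISG results was not tested.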

How the data were processed

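RNA of sorted ILC2s was sequenced from 3 groups of 3 libraries. Per the labels' protocols, the RNA, extracted with PicoPure, was amplified (Ovation RNA-Seq System V2). The deposited table holds whole read counts for each gene, which the authors left without normalization. The submitters' processing notes name FastQC, STAR, HTSeq and mm9, and the annotation and strand setting are not given in the sources used here. The members and lists were chosen with earlier results of these data known. Every member may be named. Values per library are given for those with an unadjusted p under 0.05 or groups that did not overlap, for the most abundant and for fixed transcription factors and markers. Those of Usp18, Ifit2, Eif2ak2, Oas3, Oasl2, Bst2, Ifih1, Zbp1 and Trim30a are given outside these rules. List genes are named for a call, the 2 smallest p-values per comparison or as fixed receptor and kinase genes. List genes called by DESeq2 alone, and Ifnk, Ifnab, Ifng, Tgtp2, Thy1, Areg, Rora and Ighm, were named after their values were seen. The values of 1 signalling gene are not reported here.

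The test was that of edgeR 4.0.16 (R 4.3.3): filterByExpr by group (15117 genes kept), scaling by the trimmed mean of M values, and 1 robust quasi-likelihood fit of all 9 libraries with a mean per group, with Benjamini-Hochberg adjustment. Standard errors are log2 fold changes over the root of F. The common biological variation coefficient was 0.91. The scripts were tested on simulated data with 200 changed genes. No 2 libraries agreed within sampling noise (lowest chi-square per gene 62.8). Library totals were 13407277 to 18253462 counts, and limits from 0 counts cover counting error only. The alternatives were DESeq2 1.42.0, other scalings and filters, a replicate block, only the 6 libraries compared, and each library left out. Applying them to the counts of negative fold changes, unadjusted p-values and groups that do not overlap, to the lists (DESeq2) and to Thy1, Ighm and Areg was chosen after seeing the data. Promoters came from RefSeq GRCm38.p6, and exon lengths and shared 50-base stretches from GENCODE M21. No coordinates of the count table are given. The promoter of Iigp1 was not used here.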

Additional observations from a re-analysis of the deposited data

How the results depend on the processing

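No member was called by edgeR under the other scalings, the stricter filter, the fit without robust weights, the fit of 6 libraries or any fit without 1 library, and the exceptions were DESeq2, with 2 members called in the injury comparison and 3 in the tissue comparison, and the fit without a filter on low counts, with 1 (Cxcl10) after injury. With 1 library left out, the called members numbered 0 to 0 in both comparisons. The members with a negative log2 fold change then numbered 34 to 38 after injury and 7 to 13 in uninjured meninges against lung, and the median log2 fold change ran from -0.69 to -0.35 after injury and from 0.46 to 0.76 in uninjured meninges against lung. Under upper-quartile scaling the injury median was -0.58, where the median of all genes was -0.10. The counts of all genes called, 29 after injury and 96 between tissues, were 435 and 535 by DESeq2, 78 and 193 without the filter, and 12 and 226 with the 6 libraries compared; without 1 library they were 18 to 27 and 51 to 196.

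The libraries share replicate numbers across groups. Same-numbered libraries did not deviate together, with correlations of 0.05, -0.02 and 0.03 after injury and 0.04, 0.11 and 0.01 between tissues. The labels name no shared litter, batch or day behind the numbers, and these correlations cannot show that none was shared. With the replicate number as a block, 0 members were called in either comparison, 36 and 10 had a negative log2 fold change, the medians were -0.48 and 0.45, and 43 and 136 of all genes were called. With 3 libraries per group and a median standard error of 0.70, only large differences of scarce members were detectable at this depth.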
